A study of Mus musculus with 3 samples.

Results

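The 41 genes described here make up the ATF4 branch of the stress response of mouse epiblast stem cells (EpiSCs), together with the genes that charge tRNAs and those that fold proteins in the endoplasmic reticulum. They were taken from a list of named genes, which was chosen with earlier results of these data known. Shares over all genes set beside them below are therefore a description and not a test. All 41 were found by Entrez Gene identifier in every one of 3 RNA-seq tables, among 17209 genes listed in at least 1 table. By role, 10 were ATF4 itself and its stress targets, 11 make or import amino acids, 13 are cytosolic aminoacyl-tRNA synthetases and 7 belong to the unfolded protein response. EpiSCs are pluripotent cells that resemble the epiblast after implantation. The cells were of strain 129 at passage 1, and their routine culture, on gelatin and with serum, included both IWR1 and Y27632 (Y27). IWR1 inhibits tankyrases and so dampens Wnt signalling, and Y27 is a small-molecule kinase inhibitor. The IWR1 library was made after 12 h in 2 µM IWR1 and the Y27 library after 12 h in 0.5 µM Y27. For the NT library both inhibitors were withdrawn overnight. A withdrawal before the 12 h treatments, and the number of lines or cultures behind a library, were not given in the sources used here. Each group had 1 library, so the differences below have no replicate check, and no test between treatments was possible.

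ATF4 is a transcription factor whose mRNA is translated better when the initiation factor eIF2 is phosphorylated, which happens when amino acids are short, when unfolded proteins collect in the endoplasmic reticulum, or under other stresses. It switches on genes that make, import and charge amino acids, together with regulators such as Ddit3, Trib3 and Chac1. The other branches of the unfolded protein response run through XBP1 and ATF6 and switch on chaperones of the endoplasmic reticulum. Pluripotent stem cells divide fast and need a large supply of amino acids.

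Estimated read counts summed to between 5459332 and 5767550 per library. Levels between libraries are given as CPM, read counts scaled to TMM library sizes, and levels between genes as the deposited FPKM, which is per length of transcript. Pou5f1, the central pluripotency factor, stood at 1318 CPM in IWR1, 1163 CPM in Y27 and 1463 CPM in NT, and all 14 markers of the primed epiblast were measured. These 14 summed to 4607 CPM in IWR1, 3562 CPM in Y27 and 4017 CPM in NT, the order of the 41 genes, which summed to 9504, 7413 and 9097 CPM. The median log2 difference of the 14 was 0.65 in IWR1 over Y27 (11 higher, 3 lower), -0.04 in Y27 over NT (7 higher, 7 lower) and 0.54 in IWR1 over NT (10 higher, 4 lower). Neural markers had the same order of sums, at 331 CPM in IWR1, 205 CPM in Y27 and 298 CPM in NT, mostly from Nes. Tubb3 was at 44.8, 17.9 and 40.3 CPM in the same libraries. Map2 was instead highest in Y27, at 21.1 CPM in IWR1, 30.6 CPM in Y27 and 16.5 CPM in NT. Sox1, Pax6 and Neurog2 were each under 1 CPM in every library. Extraembryonic endoderm markers summed to 277 CPM in IWR1, 545 CPM in Y27 and 463 CPM in NT, mostly from Lamb1, with Sox17, Ttr, Afp and Apoa1 in no table. The 11 measured of 12 fibroblast markers summed to 76.3 CPM in IWR1, 63.1 CPM in Y27 and 124 CPM in NT, with Lum in no table and Fap and Postn at or under 1 read in each library. Blood and endothelial markers summed to 15.4 CPM in IWR1, 15.2 CPM in Y27 and 16.3 CPM in NT over the 5 of 8 that were listed, with Hbb-b1, Ptprc and Lyz2 in no table. A list named RNA quality held 5 long non-coding RNAs (Malat1, Neat1, Meg3, H19 and Xist), which alone do not measure it. Of these, 5 were higher in IWR1 than in NT and 4 were higher in Y27 than in NT. They summed to 788 CPM in IWR1, 1057 CPM in Y27 and 354 CPM in NT. Most of this was Malat1, at 628 CPM in IWR1, 857 CPM in Y27 and 264 CPM in NT. Xist had only 17.1, 12.9 and 3.05 estimated reads in the same libraries. The part of all these transcripts in the results below was not tested. In bulk RNA, fewer cells of a type and less RNA per cell cannot be told apart.

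The median level of the 41 genes was 81.0 FPKM in IWR1, 58.5 FPKM in Y27 and 69.8 FPKM in NT. The synthetases lay within a narrow range, from 49.3 to 143 FPKM in IWR1, 39.1 to 106 FPKM in Y27 and 48.8 to 140.2 FPKM in NT. The unfolded protein response genes ranged widely. Hspa5, which encodes the chaperone BiP, stood at 227 FPKM in IWR1, 243 FPKM in Y27 and 261 FPKM in NT, and Dnajb9, which encodes a co-chaperone of BiP, at 5.75, 5.91 and 4.63 FPKM in the same libraries. Pycr1, which encodes an enzyme of proline synthesis, was the lowest of the 41 genes in every library, at 4.16 FPKM in IWR1, 3.45 FPKM in Y27 and 3.47 FPKM in NT. Atf4 mRNA was among the 3 highest of the genes in IWR1 and NT, at 193 and 173 FPKM, and was at 121 FPKM in Y27.

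**Figure D1:**
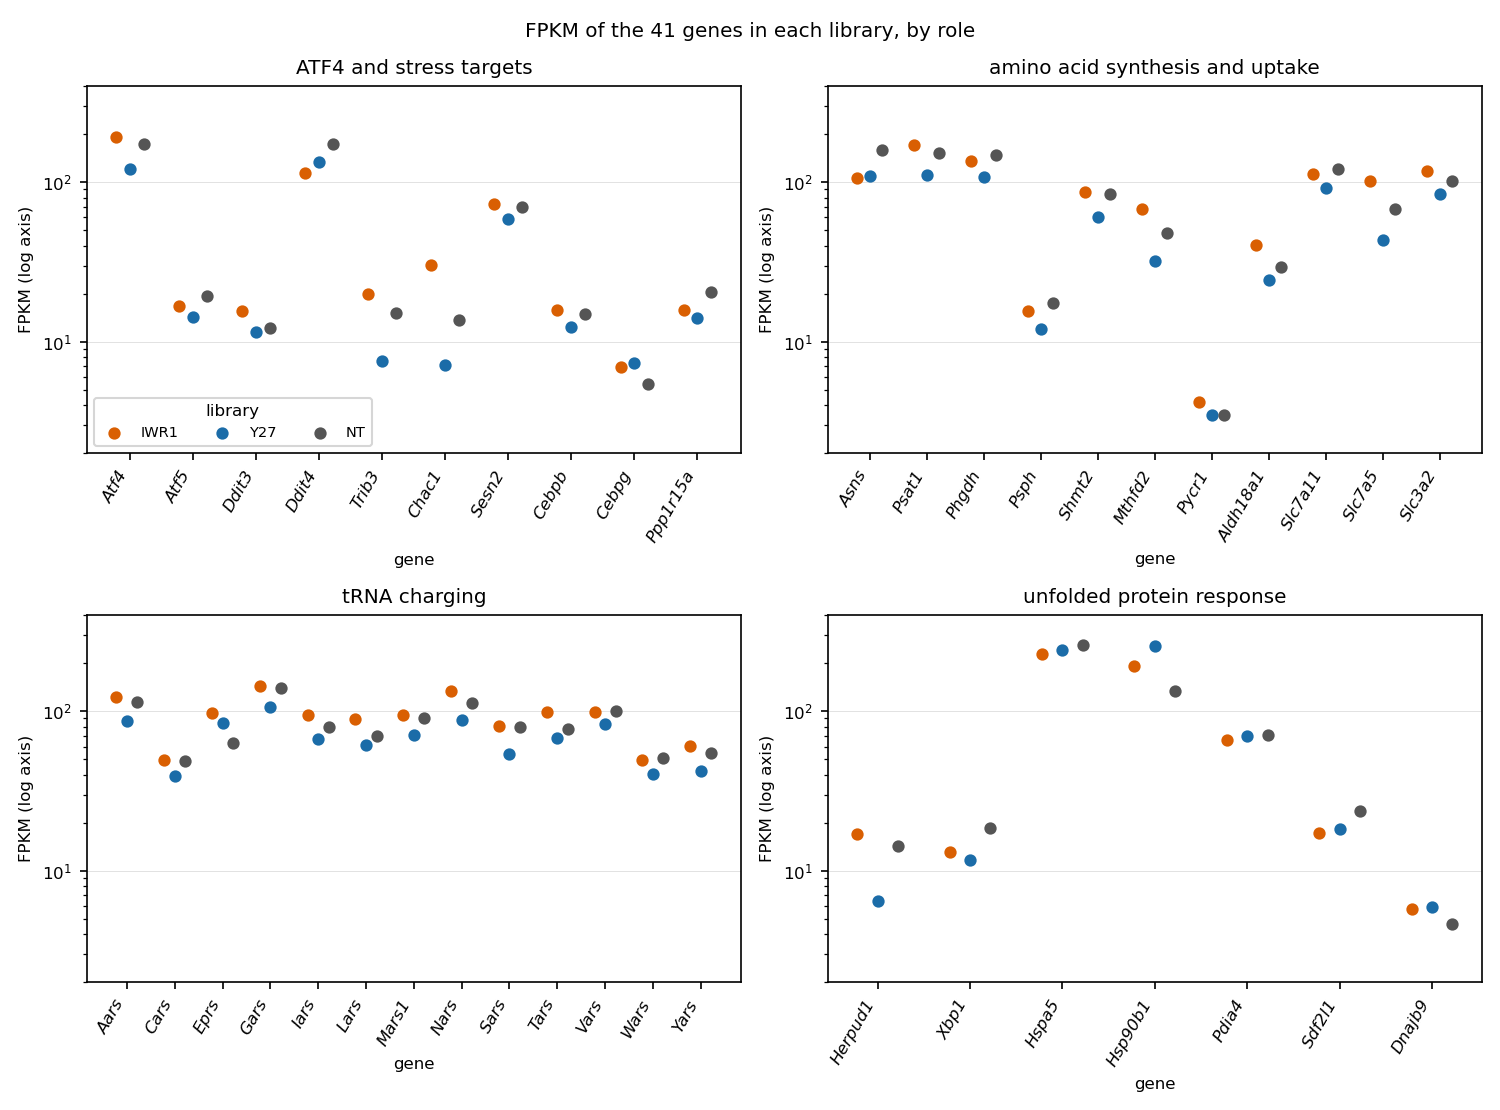
FPKM (log axis) of each of the 41 genes in the IWR1, Y27 and NT libraries, in 4 panels by role, 1 point per library. In the tRNA charging panel the Y27 point is the lowest of the 3 for 12 of 13 genes, and in the unfolded protein response panel for 2 of 7. The matching shares over all genes were not computed.

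Most transcripts of ATF4 targets, amino acid genes and synthetases were lowest in the Y27 library, and many were highest in the IWR1 library. Lowest in Y27 were 8 of 10 stress targets, 10 of 11 amino acid genes and 12 of 13 synthetases, against 2 of 7 genes of the unfolded protein response. Of the 41 genes, 32 were lowest in Y27, 5 in IWR1 and 4 in NT, and 25 were highest in IWR1, 3 in Y27 and 13 in NT. The matching shares over all genes were not computed, so these counts have no background beside them. Most of these differences were under 2-fold. In IWR1 over Y27, a comparison without NT, 5 genes (Chac1, Trib3, Herpud1, Slc7a5 and Mthfd2) were at least 2-fold higher, beside 1.38% of the 12955 genes compared, and 0 were at least 2-fold lower, beside 2.90%. Of the 41, 8 were lower by any amount, beside 49.9% of all genes. At 1.5-fold, 10 were higher, beside 5.06% of all genes, and 0 were lower, beside 8.20%. The median log2 difference, log2((CPM + 1)/(CPM + 1)), was 0.40 over the 41 genes and 0.00 over all genes. In Y27 over NT, 37 of 41 genes were lower by any amount, beside 51.9% of all genes. Of these, 2 (Herpud1 and Trib3) were at least 2-fold lower, beside 1.34%, and 0 genes were at least 2-fold higher, beside 5.58%. At 1.5-fold, 10 were lower, beside 5.53% of all genes, and 1 was higher, beside 14.9%, and the median was -0.41 over the 41 genes and -0.02 over all genes. In IWR1 over NT the genes stood on either side of 0, with 28 higher and 13 lower, beside 50.3% of all genes lower, and a median of 0.07, against 0.00 over all genes. Here 1 gene (Chac1) was at least 2-fold higher, beside 2.28% of all genes, and 0 were at least 2-fold lower, beside 2.25%. At 1.5-fold, 1 was higher, beside 10.8%, and 2 (Ddit4 and Asns) were lower, beside 6.37%. Both comparisons against NT share that library, so their values are not independent of each other.

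Counting error alone was small for most of these genes. The exact 95% interval of the fold, which covers counting error only, lay wholly above 1 in IWR1 over Y27 for 28 of the 41 genes, beside 16.3% of all genes, and wholly below 1 for 2, beside 16.1%. In Y27 over NT it lay wholly below 1 for 33, beside 22.9% of all genes, and wholly above 1 for 3, beside 21.9%. In IWR1 over NT it lay wholly above 1 for 15, beside 20.3%, and wholly below 1 for 9, beside 19.1%. Genes with many reads have narrow intervals, so these shares are not set at equal depth. A smooth trend of the log2 difference with length and GC content was also fitted over all genes. Its removal changed the number of all genes at least 2-fold higher in Y27 than in NT to 279, against 723 as measured. With the trend removed, the median of the 41 genes was -0.24 in Y27 over NT, 0.36 in IWR1 over Y27 and 0.17 in IWR1 over NT.

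**Figure D2:**
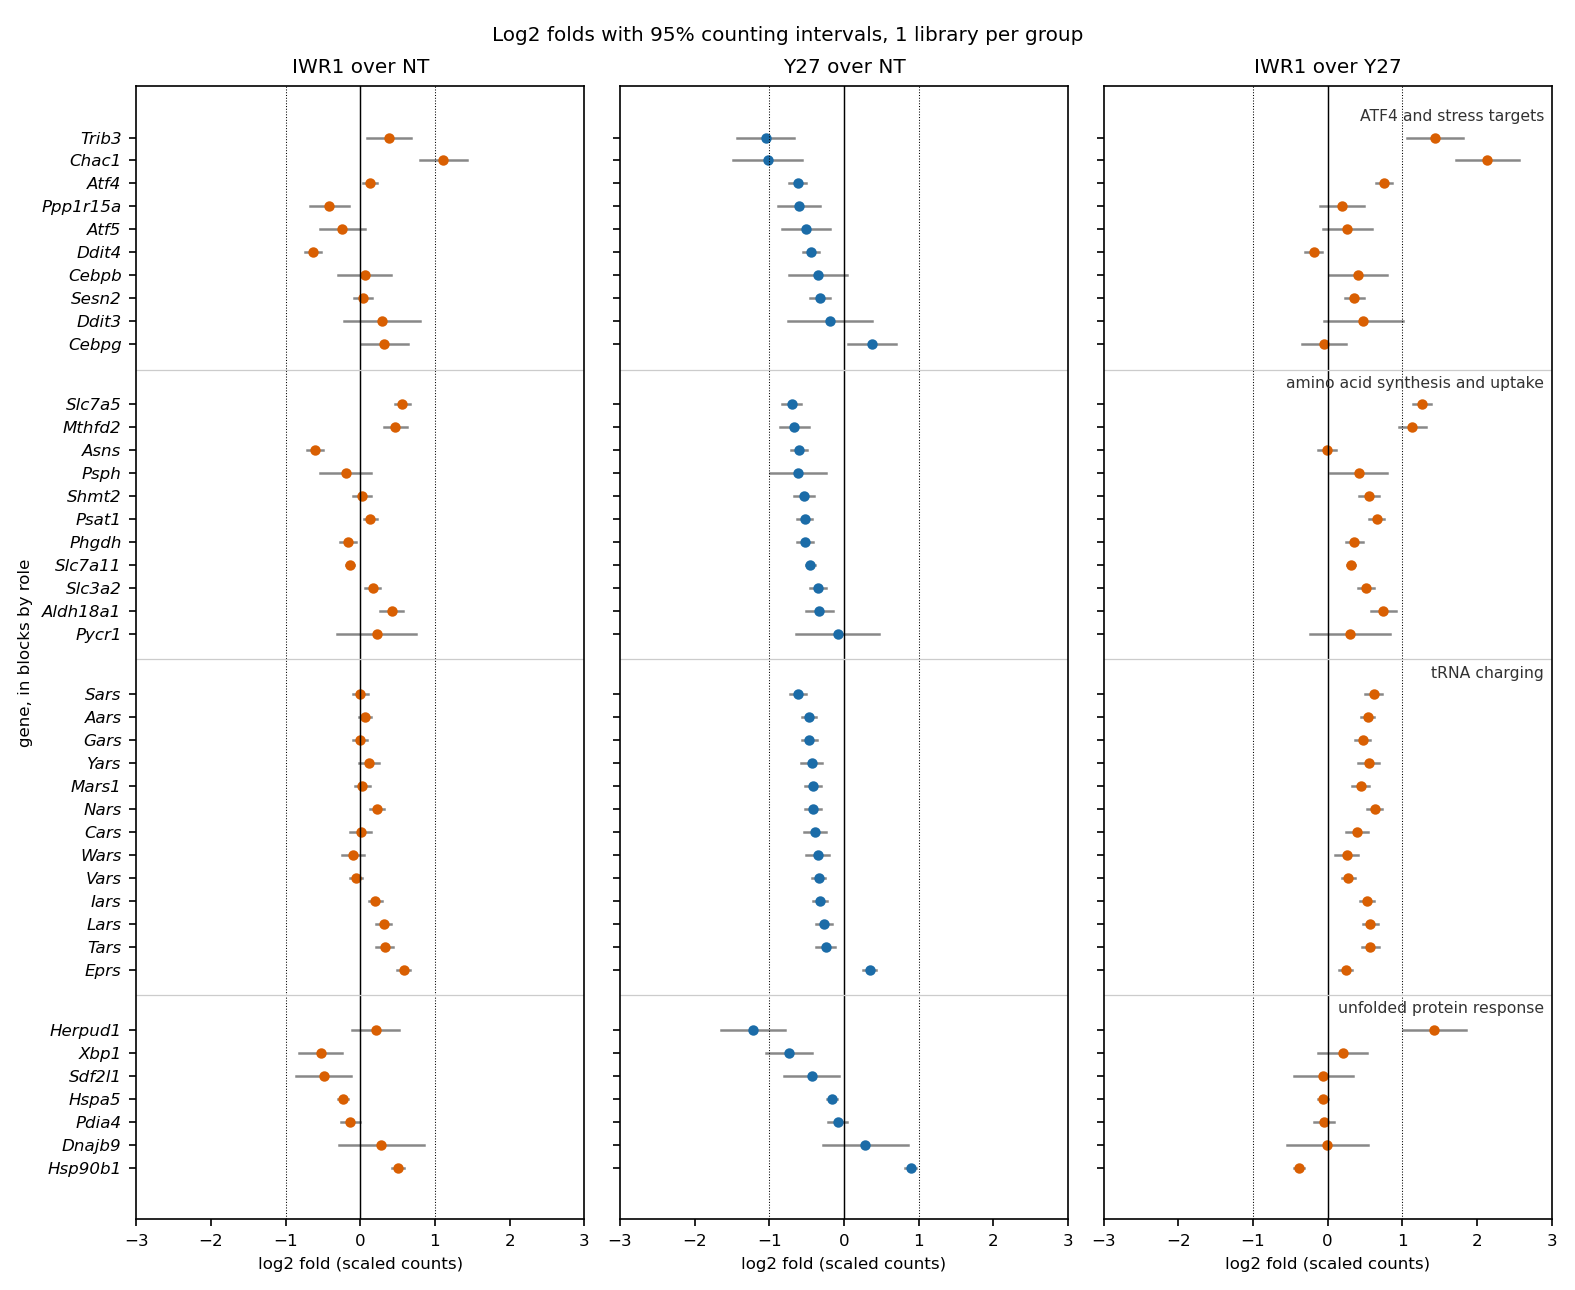
Log2 fold of scaled counts for each of the 41 genes (points) with its exact 95% counting interval (bars) in IWR1 over NT, Y27 over NT and IWR1 over Y27, in blocks by role, with dotted lines at 2-fold. In IWR1 over Y27 all 13 synthetase intervals lie above 0, beside 16.3% of all genes. In Y27 over NT 12 of 13 lie below 0, beside 22.9% of all genes. Genes with many reads have narrow intervals.

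Chac1 and Trib3 differed most among ATF4 and its stress targets. Chac1 (Entrez Gene 69065) encodes an enzyme that degrades glutathione and is induced by ATF4 together with Ddit3. It was at 47.9 CPM in IWR1, 10.9 CPM in Y27 and 22.1 CPM in NT, on 268, 61 and 125 reads in the same order. IWR1 was thus the highest library and Y27 the lowest, 4.38-fold apart (3.31 to 5.88), with NT between them. Chac1 was 2.16-fold higher in IWR1 than in NT (1.74 to 2.70) and 2.02-fold lower in Y27 than in NT (1.48 to 2.79). With the pseudocount of 1 CPM its log2 difference there was -0.95, just short of the 2-fold threshold, and with the trend removed it was -0.64. Trib3 (Entrez Gene 228775) encodes a pseudokinase that binds ATF4 and dampens it. It was at 41.1 CPM in IWR1, 15.2 CPM in Y27 and 31.5 CPM in NT, in the same order of libraries as Chac1. Trib3 was 2.70-fold higher in IWR1 than in Y27 (2.09 to 3.50) and 2.07-fold lower in Y27 than in NT (1.59 to 2.71). Its log2 difference in Y27 over NT lay on the 2-fold threshold, and was -0.94 with library totals and -0.71 with the trend removed. The promoter windows of Chac1 and Trib3, the genes with the largest differences, each hold a core of the C/EBP-ATF response element (TGATGNAA or its reverse complement), to which ATF4 dimers are known to bind. The window of Chac1 is chr2:119350992-119351291 (plus strand) and that of Trib3 is chr2:152344011-152344310 (minus strand), from RefSeq on GRCm38.p6, which is another build than the one named for the tables. They run from 250 bases before to 50 after the annotated start, 5′ to 3′ along the gene, with the core in capitals.
Chac1: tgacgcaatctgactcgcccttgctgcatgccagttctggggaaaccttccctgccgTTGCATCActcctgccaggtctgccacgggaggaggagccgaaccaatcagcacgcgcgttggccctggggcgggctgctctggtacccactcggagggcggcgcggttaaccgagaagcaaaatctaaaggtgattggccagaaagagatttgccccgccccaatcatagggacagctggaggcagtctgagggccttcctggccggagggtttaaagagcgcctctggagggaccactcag
Trib3: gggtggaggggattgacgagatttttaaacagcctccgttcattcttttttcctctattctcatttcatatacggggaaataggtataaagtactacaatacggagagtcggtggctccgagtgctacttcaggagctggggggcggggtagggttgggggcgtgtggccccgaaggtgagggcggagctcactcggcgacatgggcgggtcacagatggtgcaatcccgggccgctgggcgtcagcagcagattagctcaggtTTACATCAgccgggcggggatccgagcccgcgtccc

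Atf4 mRNA itself (Entrez Gene 11911) followed the same order at smaller size, with 324 CPM in IWR1, 193 CPM in Y27 and 295 CPM in NT. It was 1.68-fold higher in IWR1 than in Y27 (1.56 to 1.82), and 1.53-fold lower in Y27 than in NT (1.42 to 1.66). ATF4 activity is set largely by translation, which these mRNA levels do not measure. Sesn2, which encodes a leucine sensor that restrains mTORC1, was at 197 CPM in IWR1, 154 CPM in Y27 and 192 CPM in NT. As measured, IWR1 and NT were thus close and Y27 below both. With the trend removed, the log2 difference of Sesn2 was 0.23 in IWR1 over NT and -0.06 in Y27 over NT, so that this order was not kept. Cebpb, a partner of ATF4 in dimers, was at 23.9 CPM in IWR1, 18.1 CPM in Y27 and 23.0 CPM in NT. Its interval in Y27 over NT reached from 1.66-fold lower to 1.03-fold higher. Ddit3, which encodes CHOP, the transcription factor that links lasting stress to cell death, had few reads, with 74, 53 and 61 in IWR1, Y27 and NT. At that depth its fold of 1.39 in IWR1 over Y27 (0.965 to 2.02) was not distinguished from 1.

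Other stress targets were highest in NT. Ddit4, which encodes REDD1, an inhibitor of mTORC1 that glucocorticoids, hypoxia and ATF4 can induce, was at 192 CPM in IWR1, 219 CPM in Y27 and 298 CPM in NT. It was therefore lower than in NT in both treated libraries, 1.55-fold in IWR1 (1.43 to 1.67) and 1.36-fold in Y27 (1.26 to 1.46). With the trend removed, its log2 difference was -0.39 in IWR1 over NT and -0.13 in Y27 over NT. Ppp1r15a, which encodes GADD34, the phosphatase subunit that reverses eIF2 phosphorylation, was at 37.0 CPM in IWR1, 32.4 CPM in Y27 and 49.2 CPM in NT. Atf5, a relative of ATF4 that is likewise controlled by translation, was at 30.4 CPM in IWR1, 25.3 CPM in Y27 and 35.9 CPM in NT. For these 3 genes the level in NT was above both treated libraries, but the interval of Atf5 in IWR1 over NT held 1 (fold 0.846, 0.686 to 1.04). Cebpg, another dimer partner of ATF4, was lowest in NT, at 33.2 CPM in IWR1, 34.5 CPM in Y27 and 26.6 CPM in NT. Its counts were partly fractional, as when a read is shared between genes, so its values are uncertain. Over the 10 genes of this role, the median log2 difference was 0.37 in IWR1 over Y27, -0.47 in Y27 over NT and 0.09 in IWR1 over NT. With the length and GC trend removed, the Y27 over NT median was -0.17.

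Genes of amino acid synthesis and uptake were all lower in Y27 than in NT, 11 of 11, beside 51.9% of all genes. Their median was -0.52, or -0.30 with the trend removed, where Pycr1 turned to 0.17 and the other 10 stayed below 0. Summed, they stood at 3062 CPM in IWR1, 2156 CPM in Y27 and 3039 CPM in NT. The transporter gene Slc7a5 (Entrez Gene 20539) encodes LAT1, which imports leucine and other large neutral amino acids. It was at 362 CPM in IWR1, 151 CPM in Y27 and 245 CPM in NT. This placed IWR1 above and Y27 below NT, with a fold of 2.40 in IWR1 over Y27 (2.22 to 2.61), of 1.48 in IWR1 over NT (1.38 to 1.58) and 1.63-fold lower in Y27 than in NT (1.49 to 1.77). Slc3a2 encodes CD98, the heavy chain that LAT1 and the cystine transporter need to reach the cell surface. Its levels were 303 CPM in IWR1, 213 CPM in Y27 and 269.9 CPM in NT, in the order of Slc7a5 with smaller gaps. Slc7a11, which encodes the cystine transporter chain xCT, was at 1045 CPM in IWR1, 841 CPM in Y27 and 1147 CPM in NT. Slc3a2 and Slc7a11 had partly fractional counts. Slc7a11 also had the longest transcript, 9227 bases, and its log2 difference in Y27 over NT was -0.45 as measured and -1.31 with the trend removed.

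Among the enzymes, Mthfd2 differed most between the treated libraries. Mthfd2, which encodes a mitochondrial folate dehydrogenase, was at 141 CPM in IWR1, 64.3 CPM in Y27 and 102 CPM in NT. It was 2.20-fold higher in IWR1 than in Y27 (1.94 to 2.50) and 1.58-fold lower in Y27 than in NT (1.39 to 1.81). Shmt2, which encodes the mitochondrial enzyme that converts serine to glycine, was at 201 CPM in IWR1, 136 CPM in Y27 and 197 CPM in NT. Only Y27 stood apart as measured. With the trend removed, the log2 difference of Shmt2 was 0.24 in IWR1 over NT and -0.25 in Y27 over NT. Aldh18a1, whose product starts proline synthesis from glutamate, was at 143 CPM in IWR1, 85.1 CPM in Y27 and 107 CPM in NT, in the order of Mthfd2. Pycr1, which acts at the end of the same pathway, had between 55.2 and 68.2 estimated reads per library and folds that were not distinguished from 1. The enzymes of serine synthesis, Phgdh, Psat1 and Psph, act in that order. They were lower in Y27 than in NT by 1.43-fold (1.33 to 1.55), 1.44-fold (1.34 to 1.55) and 1.52-fold (1.18 to 1.98). Psat1 was slightly higher in IWR1 than in NT, with log2 differences of 0.13 for Psat1, -0.16 for Phgdh and -0.19 for Psph.

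Asns (Entrez Gene 27053), which encodes asparagine synthetase and is a textbook target of ATF4, did not follow the other enzymes. It was at 205 CPM in IWR1, 206 CPM in Y27 and 313 CPM in NT. The treated libraries did not differ beyond counting error, with a fold of 1.00 in IWR1 over Y27 (0.919 to 1.08), and each was 1.52-fold lower than NT (1.41 to 1.64). The promoter window of Asns (chr6:7693160-7693459, minus strand) holds a C/EBP-ATF core on its own strand, in capitals below. Chac1 and Trib3, from which this gene departs, hold the core too.
Asns: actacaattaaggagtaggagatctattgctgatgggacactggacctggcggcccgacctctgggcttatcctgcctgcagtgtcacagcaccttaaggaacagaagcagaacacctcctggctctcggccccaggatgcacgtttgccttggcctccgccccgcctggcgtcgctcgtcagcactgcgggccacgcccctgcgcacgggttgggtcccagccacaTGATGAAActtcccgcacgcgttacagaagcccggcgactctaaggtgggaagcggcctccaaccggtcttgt

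The 13 synthetases, which join amino acids to their tRNAs, differed in 1 direction between the treated libraries. All 13 were higher in IWR1 than in Y27, beside 49.9% of all genes lower by any amount. Their log2 differences ran from 0.24 to 0.63, with a median of 0.53, or 0.50 with the trend removed. Their sum was 4123 CPM in IWR1, 2994 CPM in Y27 and 3722 CPM in NT, a fold of 1.38 in IWR1 over Y27 (1.35 to 1.41). None reached 2-fold. Nars, the asparaginyl synthetase gene, was at 357 CPM in IWR1, 230.3 CPM in Y27 and 306 CPM in NT, 1.55-fold higher in IWR1 than in Y27 (1.44 to 1.66). Sars, for serine, was at 297 CPM in IWR1, 194 CPM in Y27 and 297 CPM in NT, so IWR1 and NT coincided and Y27 was 1.53-fold lower than NT (1.42 to 1.65). Tars, for threonine, was at 262 CPM in IWR1, 176 CPM in Y27 and 209 CPM in NT, with NT between the treated libraries. The window of Tars (chr15:11399609-11399908, minus strand) is given below, with its C/EBP-ATF core in capitals on the opposite strand just before the start.
Tars: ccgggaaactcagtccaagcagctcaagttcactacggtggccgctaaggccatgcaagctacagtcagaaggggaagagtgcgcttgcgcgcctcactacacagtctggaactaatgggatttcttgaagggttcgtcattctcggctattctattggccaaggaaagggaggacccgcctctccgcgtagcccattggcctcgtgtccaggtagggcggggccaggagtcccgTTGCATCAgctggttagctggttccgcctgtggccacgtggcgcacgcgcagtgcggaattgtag

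Against NT, 12 of the 13 synthetases were lower in Y27, beside 51.9% of all genes, with a median of -0.39 (-0.27 with the trend removed). In IWR1 over NT their median was 0.07. The counting interval there lay wholly above 1 for 5 of them, beside 20.3% of all genes, and wholly below 1 for 0, beside 19.1%. Aars, for alanine, was at 461 CPM in IWR1, 317 CPM in Y27 and 439 CPM in NT, and Gars, for glycine, at 343, 248 and 343 CPM. In both genes IWR1 and NT were close and Y27 stood below. Iars (isoleucine, partly fractional counts) and Lars (leucine) had NT between the treated libraries, with 418 and 345 CPM in IWR1, 289.9 and 232 CPM in Y27, and 362 and 278 CPM in NT. Cars (cysteine), Mars1 (methionine), Vars (valine), Wars (tryptophan) and Yars (tyrosine) were 1.26-fold to 1.35-fold lower in Y27 than in NT, and their log2 differences in IWR1 over NT ran from -0.09 to 0.12. Eprs, which encodes the joint synthetase for glutamate and proline, was the exception. It was at 476 CPM in IWR1, 404 CPM in Y27 and 318 CPM in NT, 1.27-fold higher in Y27 than in NT (1.19 to 1.35), and its log2 difference there turned to -0.06 with the trend removed.

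Synthetases outside the 13 were also measured. The list of other cytosolic synthetases and cofactors holds the genes for aspartate, phenylalanine, histidine, lysine, glutamine and arginine and 3 subunits of the multi-synthetase complex. Its 10 genes had a median of 0.22 in IWR1 over Y27 (range -0.08 to 0.40) and of -0.17 in Y27 over NT, with 0 past 1.5-fold in either comparison. Of all genes, 5.06% were 1.5-fold higher and 8.20% lower in IWR1 over Y27, and 14.9% higher and 5.53% lower in Y27 over NT. The sum of the 10 was 1536 CPM in IWR1, 1332 CPM in Y27 and 1506 CPM in NT, a fold of 1.15 in IWR1 over Y27 (1.12 to 1.19), against 1.38 for the 13 above. With 1 library per group the difference between these lists could not be tested. Of these genes, Aimp2, a scaffold of the complex, was at 88.1 CPM in IWR1, 66.3 CPM in Y27 and 93.8 CPM in NT. Dars and Farsa, for aspartate and phenylalanine, had log2 differences of -0.08 and 0.21 in IWR1 over Y27. The 17 mitochondrial synthetases had medians of 0.18 in IWR1 over Y27 and -0.08 in Y27 over NT. Nars2 had the largest difference there, at 16.6 CPM in IWR1, 8.96 CPM in Y27 and 14.5 CPM in NT, on 93, 50 and 82 reads, followed by Aars2 and Rars2 with log2 differences of -0.42 in IWR1 over NT and 0.39 in Y27 over NT.

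In the unfolded protein response, Herpud1 had the order of Chac1 and Trib3, and the chaperone genes did not. Herpud1 (Entrez Gene 64209) encodes a membrane protein of endoplasmic reticulum degradation and is known to respond to ATF4 as well as to ATF6. It was at 31.6 CPM in IWR1, 11.8 CPM in Y27 and 27.4 CPM in NT, on 177, 66 and 155 reads. It was 2.67-fold higher in IWR1 than in Y27 (2.00 to 3.60) and 2.32-fold lower in Y27 than in NT (1.73 to 3.14), while the interval of IWR1 over NT held 1 (fold 1.15, 0.924 to 1.44). Its log2 difference of -1.15 in Y27 over NT was -0.93 with the trend removed. Hsp90b1, which encodes the chaperone GRP94, was highest in Y27, at 534 CPM in IWR1, 698 CPM in Y27 and 376 CPM in NT. It was 1.86-fold higher in Y27 than in NT (1.76 to 1.96) and also higher in IWR1 than in NT. The log2 differences were 0.89 in Y27 over NT and 0.51 in IWR1 over NT, and with the trend removed they were 0.54 and 0.25. These genes stood on opposite sides of NT in Y27, and both promoters are shown. The window of Herpud1 (chr8:94386179-94386478, plus strand) holds a C/EBP-ATF core. That of Hsp90b1 (chr10:86705395-86705694, minus strand) holds 2 copies of the endoplasmic reticulum stress response element (CCAAT and CCACG with 9 bases between them), 1 on each strand, through which ATF6 is known to act. All these matches are in capitals. The window of Hspa5 holds the endoplasmic reticulum stress response element too. Unlike Hsp90b1, Hspa5 was lower than in NT in both treated libraries, 1.12-fold in Y27 and 1.17-fold in IWR1. Other spacings of that element were not searched. The stretch attgggccacg of the Herpud1 window, which holds CCAAT on the opposite strand close to CCACG, is therefore unmarked.
Herpud1: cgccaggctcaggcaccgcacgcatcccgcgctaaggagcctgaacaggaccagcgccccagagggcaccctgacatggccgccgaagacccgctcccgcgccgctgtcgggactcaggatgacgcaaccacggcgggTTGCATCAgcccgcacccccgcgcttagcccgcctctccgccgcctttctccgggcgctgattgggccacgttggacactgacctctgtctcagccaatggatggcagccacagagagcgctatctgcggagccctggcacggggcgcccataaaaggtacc
Hsp90b1: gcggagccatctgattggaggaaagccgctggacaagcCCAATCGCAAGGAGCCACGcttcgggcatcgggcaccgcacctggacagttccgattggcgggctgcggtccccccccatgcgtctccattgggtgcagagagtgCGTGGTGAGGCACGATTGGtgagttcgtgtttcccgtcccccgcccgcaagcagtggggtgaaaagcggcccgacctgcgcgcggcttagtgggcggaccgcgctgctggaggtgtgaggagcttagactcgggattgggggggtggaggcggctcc

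The remaining genes of this role differed little between the treated libraries. Hspa5 was at 581 CPM in IWR1, 607 CPM in Y27 and 681 CPM in NT, so that it was 1.17-fold lower in IWR1 (1.12 to 1.23) and 1.12-fold lower in Y27 (1.07 to 1.17) than in NT. Pdia4, which encodes a disulfide isomerase, was at 173 CPM in IWR1, 179 CPM in Y27 and 190.0 CPM in NT. Sdf2l1, which encodes a cofactor of BiP, was at 18.9 CPM in IWR1, 19.7 CPM in Y27 and 26.5 CPM in NT. In all 3 genes NT was highest and the treated libraries were close, with counting intervals of IWR1 over Y27 that held 1. Xbp1, whose spliced mRNA encodes the transcription factor of the IRE1 branch, was at 29.7 CPM in IWR1, 25.8 CPM in Y27 and 42.8 CPM in NT, and was 1.66-fold lower in Y27 than in NT (1.34 to 2.05). Gene totals do not separate its spliced and unspliced forms. Dnajb9 had 60 reads or fewer in each library, partly fractional, and its intervals held 1 in every comparison. The median of the 7 genes was -0.05 in IWR1 over Y27, -0.16 in Y27 over NT and -0.13 in IWR1 over NT.

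Other genes of these pathways, from lists written alongside the 41, were described in the same way. These lists too were chosen with earlier results of these data known, so they are not independent support. Of 31 further reported ATF4 targets, 27 passed the level filter of a mean of 1 CPM, and 23 of them were higher in IWR1 than in Y27 and 4 lower, beside 49.9% of all genes lower, with a median of 0.29. Of the 27, 8 were at least 1.5-fold higher, beside 5.06% of all genes, and 1 at least 1.5-fold lower, beside 8.20%. In Y27 over NT, 23 were lower, beside 51.9% of all genes, and 4 higher, with a median of -0.32. Slc7a3, which encodes an importer of arginine and lysine, was at 238 CPM in IWR1, 101 CPM in Y27 and 126 CPM in NT, 2.35-fold higher in IWR1 than in Y27 (2.13 to 2.60). Aldh1l2, a mitochondrial folate enzyme gene, was at 3.39 CPM in IWR1, 0.179 CPM in Y27 and 1.06 CPM in NT, on 19, 1 and 6 reads in the same order, a ratio of 18.9 in IWR1 over Y27 with an interval of 3.01 to 787. Kdm7a, a histone demethylase gene with partly fractional counts, went the other way, at 27.3 CPM in IWR1, 50.1 CPM in Y27 and 19.3 CPM in NT, and its log2 difference of 1.33 in Y27 over NT became 0.34 with the trend removed.

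Of 30 other unfolded protein response genes, 29 were compared, and their medians were -0.09 in IWR1 over Y27, -0.18 in Y27 over NT and -0.21 in IWR1 over NT. In IWR1 over NT 20 of the 29 were lower, beside 50.3% of all genes, and 9 higher, and 0 passed 1.5-fold, beside 10.8% of all genes higher and 6.37% lower. Crebrf, a regulator gene of this response, was at 13.0 CPM in IWR1, 21.9 CPM in Y27 and 10.8 CPM in NT. Edem3 and Edem1, whose products act in the degradation of misfolded glycoproteins, had log2 differences of 0.72 in Y27 over NT and -0.61 in IWR1 over Y27. The 16 genes upstream, which encode the eIF2 kinases, eIF2B and the stress sensors, had medians of 0.14 in IWR1 over Y27, -0.16 in Y27 over NT and 0.03 in IWR1 over NT. Among them Eif2ak2, which encodes the kinase PKR and had partly fractional counts, was at 26.6 CPM in IWR1, 30.9 CPM in Y27 and 18.6 CPM in NT. Eif2b2, a subunit gene of eIF2B, was at 59.3 CPM in IWR1, 53.6 CPM in Y27 and 78.0 CPM in NT. Ppp1r15b, the constitutive counterpart of Ppp1r15a, was at 214 CPM in IWR1, 161 CPM in Y27 and 200.3 CPM in NT. Phosphorylation of eIF2 is not measured by these tables.

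**Figure D3:**
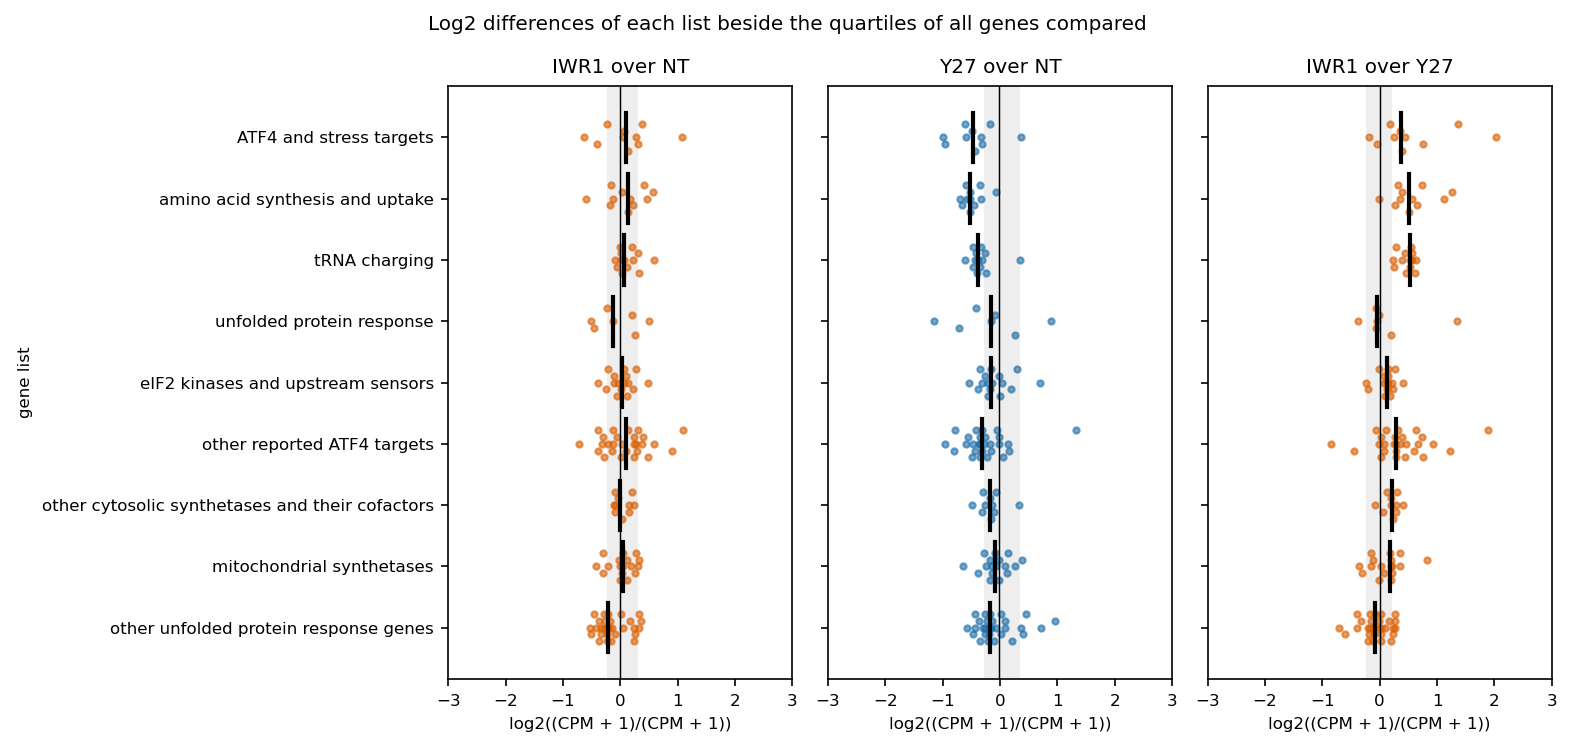
Log2 differences of every compared gene (points) in the 4 roles of the 41 genes and in 5 further lists, with each list's median (thick bar), beside the median (thin line) and the quartiles (grey band) of all 12955 genes compared. In IWR1 over Y27 the medians of ATF4 and stress targets (0.37), amino acid genes (0.51) and synthetases (0.53) lie above the grey band, and those of both unfolded protein response lists (-0.05 and -0.09) lie within it.

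The motifs in the promoter windows, also chosen with earlier results of these data known, are given by role. A window was found in RefSeq for 35 of the genes. Of the genes past 2-fold, Slc7a5 had no window and that of Mthfd2 held no searched motif. The C/EBP-ATF core, TGATGNAA on either strand, was in 11 of the 35, or 31.4%, beside 2.99% of the 13280 listed genes with a window. Counted by window and not limited to listed genes, it was in 3.97% of all 32851 promoter windows of the same length. By role it was in 5 of 8 synthetases (Aars, Gars, Iars, Tars and Yars), 3 of 10 amino acid genes (Asns, Pycr1 and Slc7a11), 2 of 10 stress targets (Chac1 and Trib3) and 1 of 7 unfolded protein response genes (Herpud1). It was in 0 of 8 other cytosolic synthetases and cofactors and 0 of 14 mitochondrial synthetases, and in 8 of 26 further ATF4 targets. The endoplasmic reticulum stress response element was searched on either strand as CCAAT and CCACG with 9 bases between them. Other spacings were not searched. It was in Hspa5 and Hsp90b1 and in no other of the 35, and in 8 of 26 other unfolded protein response genes (30.8%). Of the listed genes with a window 0.151% held it, and of all windows 0.119%. The unfolded protein response element, TGACGTGG on either strand, was in none of the 35 and in 2 of 26 other unfolded protein response genes (7.69%). It was in 1.02% of the listed genes with a window and in 0.676% of all windows. No match of one motif overlapped a match of another. Among the 41 genes, the median log2 difference in IWR1 over Y27 was 0.54 for the 11 with the core and 0.36 for the 24 with a window but no core. In Y27 over NT these medians were close, at -0.47 with the core and -0.41 without it, and in IWR1 over NT they were 0.20 and 0.03. Over all genes compared, the IWR1 over Y27 median was 0.05 for the 274 with the core and 0.00 for the 10013 without it. A match in the window is a description of the sequence and does not show binding.

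**Figure D4:**
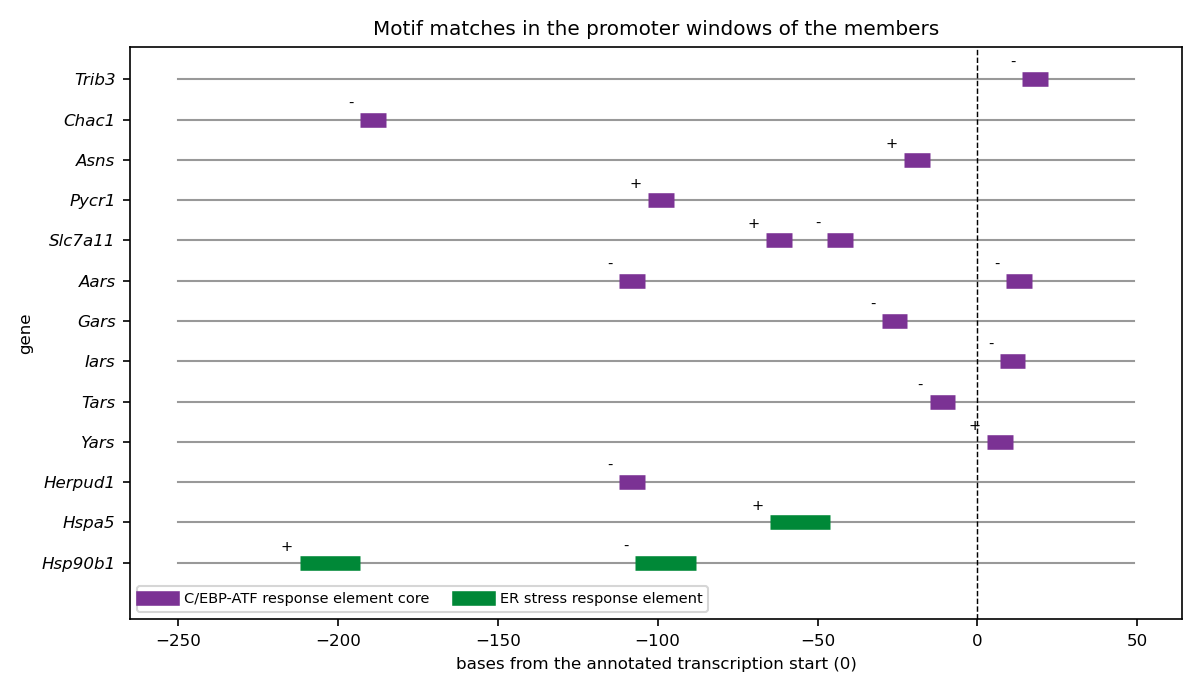
Position of each match to the C/EBP-ATF core (purple) and the endoplasmic reticulum stress response element (green) in the promoter windows of the 13 genes that hold one, in bases from the annotated start, with the strand of the match relative to the gene (+ or -). The C/EBP-ATF matches lie between 193 bases before and 21 bases after the start.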

How the data were processed

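The RNA-seq data are tables for 3 libraries of mouse EpiSCs (IWR1, Y27 and NT), with groups taken from the labels. Per the file headers, each table gives expected counts, FPKM and length by Entrez Gene identifier. The expected counts are the authors' estimated reads per gene, without normalization. The deposited FPKM adjusts them for length and library size. The submitters' processing notes name Bowtie 0.12.2 and mm8. The counting tool and its strand setting were not given in the sources used here. Of 17209 identifiers, 17160 (99.7%) matched a gene symbol in RefSeq.

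A gene absent from a table was taken as 0. Counts were scaled with TMM factors from edgeR 4.0.16 (R 4.3.3), and 12955 genes averaging 1 CPM or more were compared, with a pseudocount of 1 CPM. Folds and their exact conditional binomial 95% intervals rest on counts rounded to whole numbers. The trend was a cubic surface of the log2 difference on log2 length and GC content (GENCODE transcripts, 99.2% of the genes compared). Counts were called fractional when more than 0.005 from a whole number, as for 7 of the 41 genes. Alternatives were other pseudocounts, scalings (library total, DESeq2 1.42.0 size factors, upper quartile), filters and thresholds, removal of the trend, genes with whole counts, and the FPKM values. The steps were tested on simulated data. The 41 genes, the further lists, the motifs and the naming rule (every member, and of each further list the genes past 2-fold or the 3 largest differences) were chosen with earlier results of these data known. Promoter windows came from the RefSeq table on GRCm38.p6. Sequences were printed only for genes whose window holds a searched motif, those with the largest absolute log2 difference in any comparison first. Values were computed in Python 3.11.15 (pandas 2.3.3, scipy 1.17.1, numpy 2.4.6) and drawn with matplotlib 3.10.9.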

Additional observations from a re-analysis of the deposited data

How the results depend on the processing

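With 1 library per group, the intervals cover counting error alone. Of the 41 genes, 6 had fewer than 100 reads in some library (Ddit3, Trib3, Chac1, Pycr1, Herpud1 and Dnajb9). No paired analysis was possible because each group has 1 library. Over all the settings tried, the sign was constant for 39 of 41 genes in IWR1 over Y27 (33 higher, 6 lower), for 37 in Y27 over NT (3 higher, 34 lower) and for 31 in IWR1 over NT (22 higher, 9 lower). No median of the 41 genes or of their roles changed sign. Removal of the length and GC trend moved single genes most. It took 21 of the 41 genes outside their counting interval in Y27 over NT, 15 in IWR1 over NT and 3 in IWR1 over Y27. Over all genes, IWR1 over NT had slightly more higher than lower genes as reported (295 and 292), but fewer with a pseudocount of 5 CPM, upper quartile scaling (254 and 310), the trend removed (192 and 248), whole counts (181 and 228), FPKM or at 3-fold.

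Of the 41 genes, in IWR1 over Y27 5 were higher by 2-fold or more, and 10 at 1.5-fold and 1 at 3-fold. Those at least 2-fold lower in Y27 than in NT numbered 2, but 3 with a pseudocount of 0.1 CPM or upper quartile scaling. They numbered 1 with library totals, DESeq2 size factors, the trend removed or FPKM (Herpud1, except with the trend removed, where it was Slc7a11). With a pseudocount of 5 CPM or at 3-fold they numbered 0. At 1.5-fold, 10 were lower in Y27 than in NT and 1 was higher. In IWR1 over NT the 1 higher gene became 0 with a pseudocount of 5 CPM or at 3-fold, and 2 were lower at 1.5-fold. With the trend removed, medians in Y27 over NT were -0.24 for the 41 genes, -0.17 for stress targets and -0.30 for amino acid genes, and in IWR1 over NT 0.24 for amino acid genes and 0.16 for synthetases. With whole counts only, the unfolded protein response median in Y27 over NT was -0.29.

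Counts over all genes moved with the setting, given as higher and lower. In IWR1 over NT they were 543 and 463 with a pseudocount of 0.1 CPM, 80 and 98 with 5 CPM, 185 and 183 from a mean of 5 CPM, 1404 and 825 at 1.5-fold, 43 and 79 at 3-fold, and 152 and 164 with FPKM, and the higher count was 192 with the trend removed and 181 with whole counts. In Y27 over NT they were 340 and 42 with a pseudocount of 5 CPM, 1928 and 717 at 1.5-fold, and 80 and 27 at 3-fold. The higher count there was 279 with the trend removed and 429 with whole counts, and the lower count was 320 with a pseudocount of 0.1 CPM, 96 from a mean of 5 CPM and 93 with FPKM. In IWR1 over Y27 they were 311 and 595 with a pseudocount of 0.1 CPM, 53 and 146 with 5 CPM, 91 and 224 from a mean of 5 CPM, 656 and 1062 at 1.5-fold, 35 and 107 at 3-fold, and 99 and 231 with FPKM. The causes of these moves were not tested beyond what each setting does by construction.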
